A study of Mus musculus with 8 samples.

Results

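Melanocytes of the cochlea were followed through 6 genes, Dct, Tyr, Tyrp1, Mlana, Mitf and Kit, on 8 microarrays of the mouse inner ear. The genes were chosen by symbol: 12 probe sets of the array are annotated to them, and they make up 6 of the 18193 genes that could be read from it. The tissue was organ of Corti, the strip of sensory epithelium that holds the hair cells, taken at postnatal day 16 and parted into an apical and a basal section. All mice carried the transgene Tg(Atoh1-cre)1Bfri, whose promoter is active in hair cells, a small share of this tissue. The conditional knockout, Atoh1-Cre;Dicer1(flox/flox) and called cKO here, had both Dicer1 alleles floxed (Dicer1tm1Bdh), and its littermate controls were Atoh1-Cre;Dicer1(flox/wt), with the same Cre and 1 floxed allele. Dicer1 encodes the enzyme that cuts microRNA precursors. Each of the 4 groups (control apex, cKO apex, control base and cKO base) held 2 samples, and a sample combined the same section of the left and right cochlea of 1 mouse. The apical and basal sample of a genotype with the same replicate number are presumed to come from the same mouse, which gives 4 presumed mice.

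The stria vascularis lines the lateral wall of the cochlea, outside the organ of Corti, and secretes the potassium-rich fluid that hair cells need. Its intermediate cells are melanocytes that came from the neural crest, and they make melanin with the same enzymes as skin melanocytes. Mitf is the transcription factor that holds the lineage together and drives the pigment genes, and Kit is the receptor that melanocyte precursors need to migrate and survive. The 6 genes were read as a mark of how much lateral wall each sample held. In such bulk tissue, fewer cells of a type and less RNA per cell cannot be told apart.

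Values are signals on the log2 scale. A gene was read from its brightest probe set and tested if that probe set's mean reached 5.274, the 40th percentile of all probe sets, which is a linear signal of 38.71. Of the 6 genes, 5 passed and were tested among 13221 genes, and Tyrp1 did not pass. Values of single samples under 5.274 are hard to separate from background, and no detection calls were used here. The median linear signal ran from 67.0 to 100.1 over the arrays, each of which had been scaled to a trimmed mean of 500. Both samples of control mouse 1 stood apart from the other 6: Xist, the RNA of the inactive X chromosome, was at 12.54 and 12.39 there and at most 8.23 elsewhere. Tectb, which encodes beta-tectorin of the tectorial membrane, was at 12.52 in the apex and 5.71 in the base of that mouse and was higher in the apex of the other 3 mice too. Because this mouse also stands apart in the pigment genes, results are given with and without it.

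Upstream sequences of the pigment genes carry the M-box, the element through which Mitf is known to act on them. The letters TCATGTGCT were searched on both strands in RefSeq windows of each gene's start (GRCm38.p6, 250 bases before to 50 after). Mlana was not searched here. The letters were in the windows of Dct, Tyr and Tyrp1, and in 134 of all 32851 windows (0.408%). The 30 bases around each match are shown because these are the members whose levels are set against that of Mitf, in capitals the match.
Dct, chr14:118052379-118052408, minus strand: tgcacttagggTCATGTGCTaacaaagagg
Tyr, chr7:87493516-87493545, minus strand: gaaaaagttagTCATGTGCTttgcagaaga
Tyrp1, chr4:80834155-80834184, plus strand: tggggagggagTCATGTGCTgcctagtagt
Trpm1, chr7:64153682-64153711, plus strand: ccaaatcctcaTCATGTGcccaccccaaac
The match lies 151 bases before the start of Dct, 22 before that of Tyr and 47 before that of Tyrp1. Trpm1, a cation channel of melanocytes and no member, holds only the shorter TCATGTG, 142 bases before its start, and these 7 letters are in 3.77% of all windows. Neither string was found in the 3 windows of Mitf or the 2 of Kit. Such a match is a description of the sequence and not a measured binding site.

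Dct, dopachrome tautomerase, an enzyme of melanin synthesis (chromosome 14, 118012790 to 118052246), had the widest swing of the 6 genes. Its 1 probe set gave 5.96 and 13.88 in replicates 1 and 2 of the control base, and 13.91 and 13.65 in those of the cKO base. In the apex it was at 11.87 and 6.19 in the controls and at 6.91 and 9.36 in the cKO. So 3 of the 4 basal samples were high and near each other, the fourth was the lowest of all 8, and the highest apical sample came from the same mouse as that lowest basal one. In linear signal, control base replicate 2 was at 15094 and replicate 1 at 62.2, a 243-fold difference between replicates of 1 group. Only 1 of the 13221 tested genes, Dct itself counted, differed as much between the control basal replicates, where the median gene differed by 0.34. Between the cKO basal replicates Dct differed by 0.27, and 40.5% of the tested genes differed as much.

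Tyr, tyrosinase, which makes the first step of melanin synthesis (chromosome 7, 87424771 to 87493512), followed the same order of samples. Its brightest probe set gave 2.89 and 10.17 in the control base and 10.28 and 9.45 in the cKO base. The apical samples had 7.59 and 4.23 in controls and 4.93 and 5.56 in the cKO. Again 3 basal samples were high and control base replicate 1 was the lowest, under the filter. With values under the filter raised to it, the control basal replicates still differed 29.7-fold and the control apical ones 4.99-fold. A second Tyr probe set had r = 0.983 with the mean level of Dct, Tyr and Mlana described below, and the remaining, dim one had r = 0.726, each over the 8 samples. These 8 points are 4 presumed mice sampled in 2 regions, and the first pair of probe sets reads the same gene, so the correlations describe the order of samples only.

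Mlana, also called Mart-1, a protein of the melanosome membrane (chromosome 19, 29697541 to 29708447), gave 2.15 and 8.47 in the control base and 8.86 and 7.72 in the cKO base. Its apical values were 5.70 and 3.94 in controls and 1.35 and 5.38 in the cKO. As for Dct and Tyr, the same 3 basal samples were above all apical ones, and control base replicate 1 was below 3 of the 4 apical samples. Of the 8 values 3 lay under the filter, which makes the low end of its range uncertain. Over the 8 samples Mlana ranged by 7.50, Dct by 7.95 and Tyr by 7.39, against a median range of 0.82 for all tested genes. A range as large as that of Dct was met by 5 of the tested genes, Dct itself counted.

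Tyrp1, the tyrosinase-related protein that acts late in the making of brown-black melanin (chromosome 4, 80834123 to 80851736), did not follow. Its brightest probe set gave 6.20 and 3.47 in control apex, 5.33 and 4.98 in cKO apex, 5.74 and 2.23 in control base, and 5.93 and 5.02 in cKO base. The sample with the least Tyrp1 was control base replicate 2, in which Dct and Tyr were high. The mean over the 8 samples was 4.86, under the filter, and the other 2 probe sets were dimmer still, so that no level of Tyrp1 could be followed here. The 3 probe sets had r of -0.157, -0.234 and -0.339 with the level of the other pigment genes over the 8 samples. Dct and Tyr, which hold the same TCATGTGCT letters upstream, were both well above the filter in the 3 high basal samples.

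**Figure D1:**
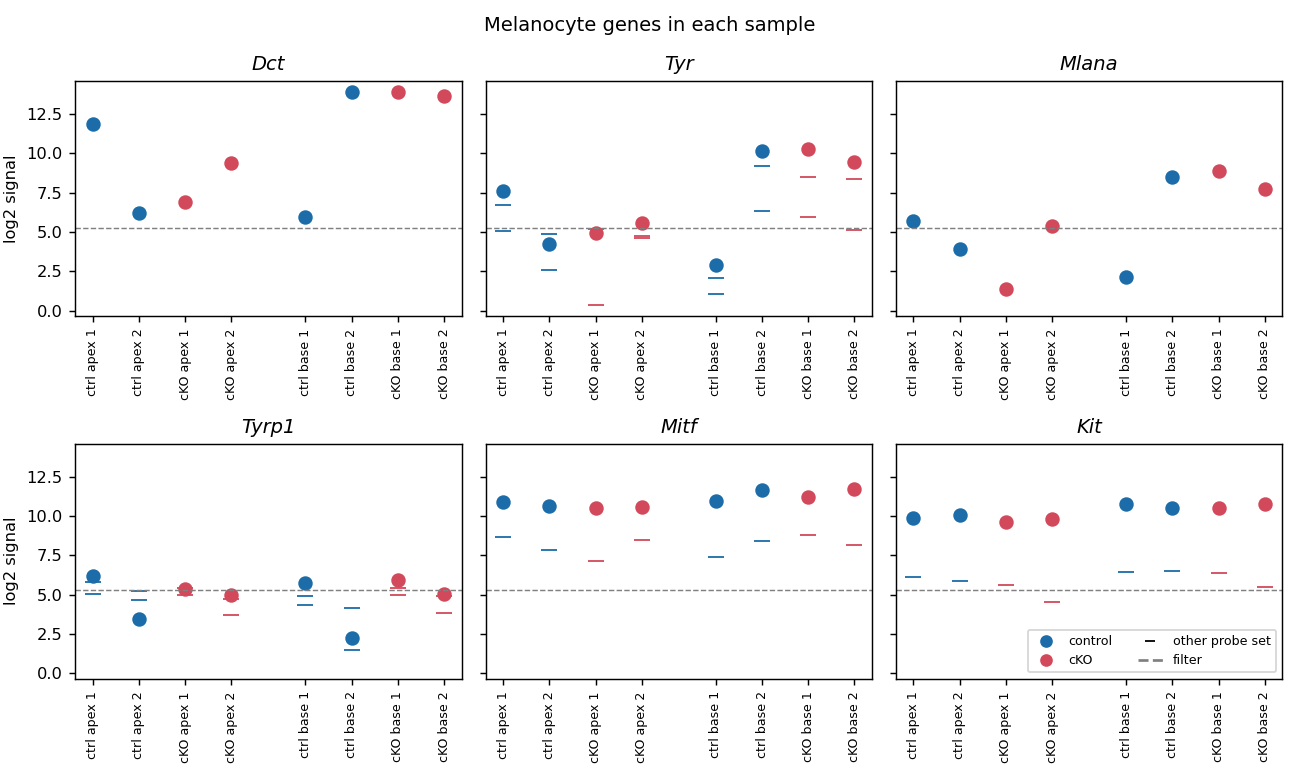
Log2 signal of the 6 melanocyte genes in each of the 8 samples, apical samples on the left and basal on the right of each panel; filled circles are the probe set read for the gene, short bars its other probe sets, and the dashed line the filter at 5.274. Dct, Tyr and Mlana are high in 3 basal samples and low in control base replicate 1, Tyrp1 stays near or under the filter, and Mitf and Kit vary little.

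Mitf, the master regulator of the melanocyte lineage (chromosome 6, 97807002 to 98021360), varied far less. It was at 10.91 and 10.62 in control apex, 10.48 and 10.58 in cKO apex, 10.92 and 11.68 in control base, and 11.24 and 11.73 in cKO base. Each basal sample was above each apical sample, but control base replicate 1 was higher than control apex replicate 1 by only 0.01. Its whole range was 1.25, while Dct spanned 7.95 in the same samples, and its r with Dct over the 8 samples was 0.803. Mitf is also transcribed from other starts in cell types other than melanocytes, and the array value does not tell these transcripts apart. A second, dimmer probe set had r = 0.793 with the pigment level and a base minus apex difference of 0.15, against 0.75 for the first.

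Kit, the receptor for stem cell factor (chromosome 5, 75574987 to 75656722), was at 9.86 and 10.04 in control apex, 9.60 and 9.79 in cKO apex, 10.75 and 10.51 in control base, and 10.52 and 10.77 in cKO base. In this, its brighter probe set, the 4 basal samples were all above the 4 apical samples. Control base replicate 1, in which Dct, Tyr and Mlana were at or near their lowest, had the second highest Kit. The r of this probe set was 0.383 with Dct, 0.354 with Tyr and 0.457 with Mlana, but 0.786 with Mitf, over the same 8 samples. A second, dimmer probe set overlapped between the regions, with 5.49 in cKO base replicate 2 and 6.13 and 5.89 in the control apex. That probe set had a base minus apex difference of 0.66 and r = 0.190 with the pigment level. Kit is also made by mast cells and other cells. Of the 9 mast cell genes listed, Kit among them, 5 lay under the filter in their mean. Cpa3, a mast cell protease, was between 5.07 and 6.06 in all samples and Cma1, mast cell chymase, between 5.26 and 6.36, both near the filter. The summed signal of the 8 mast cell genes other than Kit was between 216 and 452 in the basal samples and between 626 and 1061 in the apical ones. That difference lay in Hdc, the enzyme that makes histamine: without it the sums were 141 to 200 in the base and 143 to 221 in the apex. Hdc itself was between 6.23 and 9.71 (base minus apex -2.12 ± 0.43, adjusted p = 0.0651, limma).

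The first comparison asked whether the genes differed between the basal and the apical section. Kit was higher in the base by 0.82 ± 0.13 (log2, SE) over both genotypes, a 1.76-fold difference, with an adjusted p of 0.0374 (limma, Benjamini-Hochberg over all tested genes). It was the only member that passed. The background in this comparison was 157 of 13221 genes called (1.19%), 78 higher and 79 lower in the base. Kit was higher in the base of all 4 presumed mice, by 0.89 and 0.48 in the controls and 0.92 and 0.98 in the cKO. In 788 genes (5.96%) every basal sample was above every apical sample. Kit and Mitf, each in its brightest probe set, were the 2 members among them. With the presumed mouse as a replicate block, the adjusted p of Kit was 0.0161 as a random block (527 genes called, 3.99%) and 0.0411 as a fixed block (255 genes called, 1.93%). The call ended when its 2 probe sets were averaged (adjusted p = 0.102), when the intensity trend was left out (0.0622), and when any 1 sample other than the control basal ones was left out (0.113 to 0.169).

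The other members did not pass. Mitf was higher in the base by 0.75 ± 0.20 (adjusted p = 0.128, limma), with a base minus apex difference of 0.01 and 1.06 in the control mice and 0.75 and 1.15 in the cKO mice. Dct gave 3.26 ± 1.84 (adjusted p = 0.414), Tyr 2.62 ± 1.49 (0.416) and Mlana 2.71 ± 1.45 (0.391). The 95% interval of the Dct difference ran from -1.04 to 7.57, so a large difference in favour of the base is within it. Only 0.0303% of the tested genes had a mean difference as large as that of Dct, where its SE was 1.84 and that of Kit 0.13.

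Within genotypes, no member was called. In the cKO, Dct was at 13.78 ± 0.19 (SD, n = 2) in the base and 8.14 ± 1.74 in the apex, a difference of 5.64 ± 2.61 (SE, adjusted p = 0.481, limma). Tyr gave 4.62 ± 2.11 (0.474), Mlana 4.92 ± 2.05 (0.432), Mitf 0.95 ± 0.28 (0.255) and Kit 0.95 ± 0.18 (0.121). In that comparison 11 genes were called (0.0832%). In the cKO both basal samples were above both apical ones for all 5 tested members, as for 3067 of the tested genes (23.2%). In controls Dct was at 9.92 ± 5.60 in the base and 9.03 ± 4.02 in the apex, and the regions overlapped for Dct, Tyr and Mlana. The control differences were 0.89 ± 2.61 for Dct, 0.62 ± 2.11 for Tyr, 0.49 ± 2.05 for Mlana, 0.54 ± 0.28 for Mitf and 0.68 ± 0.18 for Kit, of which the smallest adjusted p was 0.500. No gene was called in the controls (0%), where 994 had an unadjusted p under 0.05. The fit shares 1 estimate of the spread per gene over the 4 groups, so the spread of the control samples also widens the error of the cKO comparison.

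The genotypes did not differ in any member by the test. In the base, Dct was higher in the cKO than in the control by 3.86 ± 2.61 (SE, adjusted p = 1.00, limma), with an interval from -2.23 to 9.95. Tyr gave 3.33 ± 2.11, Mlana 2.98 ± 2.05, Mitf 0.18 ± 0.28 and Kit 0.01 ± 0.18 there. For Dct, Tyr and Mlana, control base replicate 2 lay within 0.8 of both cKO basal samples and replicate 1 lay far below them. In the apex the differences were -0.90 ± 2.61 for Dct, -0.66 ± 2.11 for Tyr, -1.45 ± 2.05 for Mlana, -0.23 ± 0.28 for Mitf and -0.25 ± 0.18 for Kit. No gene was called in either region (0% each), with 290 genes at an unadjusted p under 0.05 in the apex and 413 in the base. Without the intensity trend, limma called 1 gene in each region, and neither was a member. The difference of the genotype effect between base and apex was 4.75 ± 3.69 for Dct, 4.0 ± 2.98 for Tyr and 4.43 ± 2.89 for Mlana, and no gene passed (0%), while 149 had an unadjusted p under 0.05.

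Taken within each presumed mouse, the 3 pigment genes went one way in 3 mice and the other way in the fourth. Dct was higher in the base than in the apex by 7.69 in control mouse 2, 7.0 in cKO mouse 1 and 4.28 in cKO mouse 2, and lower by 5.91 in control mouse 1 (base minus apex -5.91). Tyr gave 5.94, 5.35 and 3.88 in the same 3 mice and -4.70 in control mouse 1, and Mlana 4.53, 7.50, 2.34 and -3.55. With values under the filter raised to it, control mouse 1 differed 60.3-fold for Dct, 4.99-fold for Tyr and only 1.34-fold for Mlana. In the other 3 mice the smallest such fold was 14.7 for Tyr and 5.07 for Mlana, both in cKO mouse 2. The swing of Dct was among the largest on the array in each mouse, being matched by 2, 2, 3 and 8 tested genes in control mouse 1, control mouse 2, cKO mouse 1 and cKO mouse 2, Dct itself counted. Of the 13221 tested genes, 839 (6.35%) were lower in the base of control mouse 1 and higher in that of the other 3, and 26 of these differed by more than 1 in all 4 mice. The 26 were found after the values were seen, and Dct, Tyr and Mlana were 3 of them. Mlana was among them through a value of 2.15 in the base of control mouse 1, under the filter. Tyrp1, with -0.47, -1.24, 0.60 and 0.04, and Mitf and Kit did not have that pattern.

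**Figure D2:**
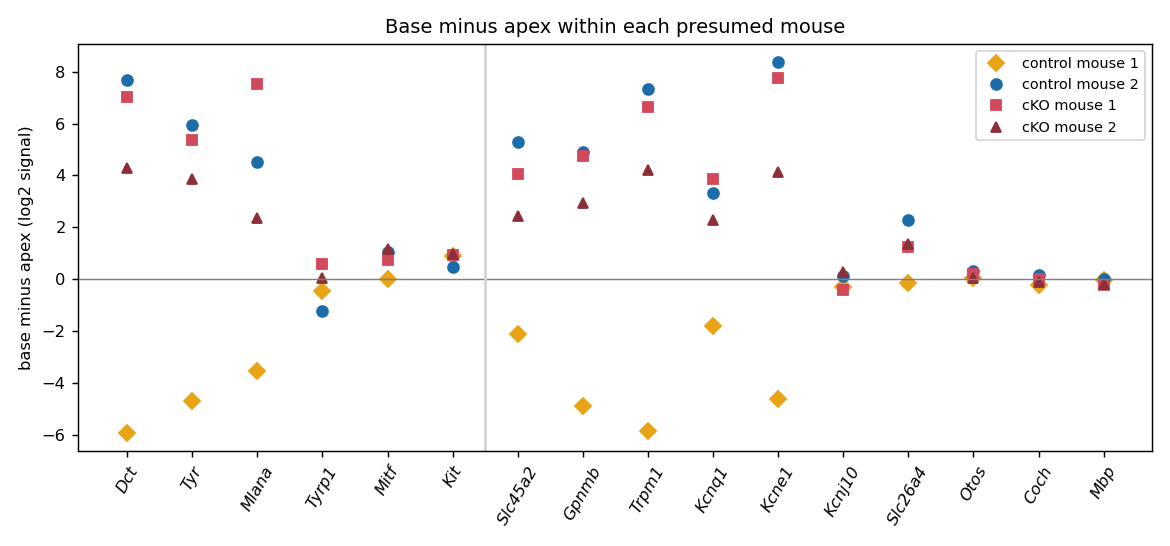
Base minus apex difference in log2 signal within each of the 4 presumed mice, for the 6 melanocyte genes (left of the grey line) and 10 other genes of pigment cells, the stria, the ligament and myelin. In control mouse 1 (diamonds) Dct, Tyr, Mlana, Slc45a2, Gpnmb, Trpm1, Kcnq1 and Kcne1 lie below 0 while the other mice lie above it, and Kit, Otos, Coch and Mbp stay within 1 of 0 in every mouse. Values under the filter are drawn as measured, which widens swings such as those of Mlana, Trpm1 and Kcne1.

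When both samples of control mouse 1 were left out, a choice made after seeing the data and because of these same genes, the base minus apex difference over both genotypes was 6.67 ± 0.57 (SE) for Dct and 5.28 ± 0.31 for Tyr. It was 4.73 ± 0.99 for Mlana, 1.01 ± 0.17 for Mitf and 0.71 ± 0.15 for Kit. All 5 tested members then passed (adjusted p from 5.6e-04 for Tyr to 0.0333 for Kit, limma), beside 1049 genes in all (7.93%). In the cKO 4 members and 449 genes passed (3.4%), and in controls, where the lone sample of each region was assumed to vary like the cKO samples, 2 members and 157 genes (1.19%). Without control base replicate 1 alone, all 5 passed again and 1518 genes were called (11.5%). The genotype difference in the base was then near 0, at -0.10 for Dct, -0.31 for Tyr and -0.18 for Mlana. Since these samples were set aside for their values, the counts describe the remaining 3 mice and do not test the pattern. For Tyr and Mlana they also set high basal values against apical values near or under the filter. Apical Mlana was at 3.94 in control replicate 2 and at 1.35 and 5.38 in the cKO, and Tyr at 4.23, 4.93 and 5.56. The sizes of these differences are therefore uncertain. With values under the filter raised to it, the base was still higher, by at least 14.7-fold for Tyr and 5.07-fold for Mlana.

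Other genes of pigment cells were read from a list of 22, of which 21 have a probe set and 20 were tested. None passed in any of the 6 comparisons. Over both genotypes their median base minus apex difference was 0.18, with 14 of 20 above 0, against a median of -0.02 for all tested genes. Of these, 4 that were picked after their values were seen lay close to Dct in their order of samples. Gpnmb, a glycoprotein of melanosomes, gave 3.85 and 11.25 in the control base and 11.09 and 10.63 in the cKO base. Slc45a2, a transporter of the melanosome, gave 5.79 and 10.54 in the control base and 10.42 and 9.70 in the cKO base. Trpm1 was under the filter in its mean, with 1.36 and 8.46 in the control base. Gpr143, a receptor of the melanosome membrane, gave 4.37 and 7.43 there. These 4 genes had r from 0.958 to 0.979 with the pigment level over the 8 samples. Oca2, a transporter of the melanosome that had r = -0.225, was not among them.

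Pmel, which forms the fibrils on which melanin is laid down, varied less, with 7.86 and 7.68 in control apex, 7.36 and 7.55 in cKO apex, 7.31 and 8.63 in control base, and 10.10 and 8.80 in cKO base (base minus apex 1.10 ± 0.37 over both genotypes, adjusted p = 0.197, limma). The 4 genes of highest mean signal in the list, which many cell types use, varied little against Dct. Ap3d1, a subunit of the AP-3 adaptor, ranged by 0.45, Bloc1s6, a subunit of the BLOC-1 complex, by 0.48, and Atp7a, a copper pump, by 0.78. Myo5a, the myosin that carries melanosomes, ranged by 1.54 and was lowest in control base replicate 2. Of the 20 tested genes of the list, 6 had a range over 2 and 3 had r of at least 0.9 with the pigment level. Over all tested genes 8.14% had such a range and 0.416% such an r.

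Regulators and signals of the melanocyte lineage formed a list of 13, all with a probe set and 10 tested, with no call in any comparison. Their median base minus apex difference over both genotypes was -0.24, and 3 of 10 were above 0. Sox10, the neural crest factor that acts upstream of Mitf, ranged only from 11.52 to 11.93 and had r = -0.724 with the pigment level. Sox10 is also made by Schwann cells and satellite glia. Mbp, myelin basic protein, was between 14.19 and 14.59 in all samples, and the summed signal of the 7 glial genes varied 1.45-fold. Kitl, the ligand of Kit, ranged by 0.55, Ednrb, the endothelin receptor of melanocyte precursors, by 0.92, and Met, a growth factor receptor, by 1.66.

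Genes of other strial cells moved with the pigment genes in part. Marginal cells face the fluid and pass potassium through the channel formed by Kcnq1 and Kcne1. Kcnq1 was at 8.86 and 7.33 in control apex, 6.93 and 8.16 in cKO apex, 7.05 and 10.64 in control base, and 10.77 and 10.45 in cKO base, the same order as for Dct at the high end. Kcne1, its small subunit, gave 2.85 and 10.45 in the control base and 10.19 and 9.92 in the cKO base. Of the 12 marginal cell genes listed 8 were tested, and their median r with the pigment level was 0.904, against -0.04 over all tested genes. None was called, and the median base minus apex difference over both genotypes was 0.74. The summed signal of the 9 marginal cell genes with a probe set varied 1.89-fold over the samples. Slc12a2, a cotransporter with a range of only 0.69, made up 49.2% to 66.9% of that sum, and without it the sum varied 2.81-fold. The widest of the tested marginal cell genes were Kcne1, with a range of 8.35, Esrrb, a nuclear receptor, with 4.86 and Kcnq1 with 3.85, beside 7.95 for Dct. Other genes of the list varied less: Atp1b2 ranged by 2.11, Lrp2 by 1.00 and Shroom3 by 0.66. Lrp2 and Shroom3 had r of only 0.363 and 0.204 with the pigment level. The low end of the Kcne1 range is uncertain, since only 5 of its 8 values reached the filter, against all 8 of Dct.

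Intermediate cell genes that are not pigment genes did not follow as a list. Kcnj10, the potassium channel of intermediate cells, was at 11.20 and 11.88 in control apex, 11.62 and 11.40 in cKO apex, 10.91 and 12.02 in control base, and 11.20 and 11.67 in cKO base, with r = 0.227. Glia and supporting cells also make it. Across the 9 genes of that list the summed signal varied 1.29-fold and the median r was 0.227, with 6 of them above 0. Ptgds made up 36.4% to 42.2% of the sum. Ptgds and Atp1b1, with means of 14.20 and 13.90, lie near the top of the scale, where differences can be compressed. Met (r = 0.575) and Ednrb (0.551) leaned with the pigment level. Kcnj13 ranged by 3.16 but had r = -0.038 and a base minus apex difference of -1.37 ± 0.38 (SE). Among genes of strial basal and spindle cells, Slc26a4, the anion exchanger pendrin, gave 12.10 and 13.81 in the control base and 13.09 and 13.11 in the cKO base. Slc2a1, a glucose transporter, was higher in all 4 basal samples (11.25 to 11.64 against 12.11 to 12.42; 0.82 ± 0.12, adjusted p = 0.0299, limma), and was the only called gene of the 7. Slc2a1 was at 12.11 in control base replicate 1 and so, like Kit, was high where Dct was low. Tjp1, the brightest gene of that list, and Nr2f2 went the other way and were lower in the base of all 4 presumed mice. Their base minus apex differences over both genotypes were -0.27 ± 0.08 and -0.52 ± 0.15 (SE), and their r with the pigment level -0.162 and -0.274. Of the 7 genes 5 had an r above 0, and the median was 0.620.

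Fibrocytes of the spiral ligament, the part of the lateral wall behind the stria, gave bright genes in every sample. Coch ranged from 14.26 to 14.83, Otos from 13.94 to 14.45 and Otor from 14.07 to 14.72. Car3, about as bright, varied more, from 13.61 to 14.74, and had r = 0.729 with the pigment level. The summed signal of the 12 fibrocyte genes varied 1.48-fold, and the linear maximum of an array was between 22445 and 31863, so these signals lie close to the top of the scale, where differences can be compressed. In control base replicate 1 that sum was 149942 and in control base replicate 2 178248. The melanocyte sum was 3794 and 21346 in the same 2 samples. In replicate 1 it was mostly Mitf (1943) and Kit (1723), with Dct at 62.2. In replicate 2 it was mostly Dct (15094), beside 3281 for Mitf and 1463 for Kit. Bright genes weigh most in the fibrocyte sum, and gene by gene the list leaned the same way as Dct: its median r with the pigment level was 0.600, and all 12 genes had an r above 0. Of its dimmer genes, Aqp1, a water channel, gave 8.66 and 11.57 in the control base, and Tbx18, a transcription factor, 11.59 and 12.50. Both were lower in the sample with the least Dct. Yet Aqp1 was lowest in control apex replicate 1 (8.13), the apical sample with the most Dct. Base minus apex in control mouse 1 was 0.53 for Aqp1, -0.11 for Tbx18 and 0.77 for Pou3f4, another dimmer gene. Aqp1 and Pou3f4 were higher in the base of all 4 presumed mice, unlike Dct. Whether signals near the top of the scale hide a difference was not tested.

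**Figure D3:**
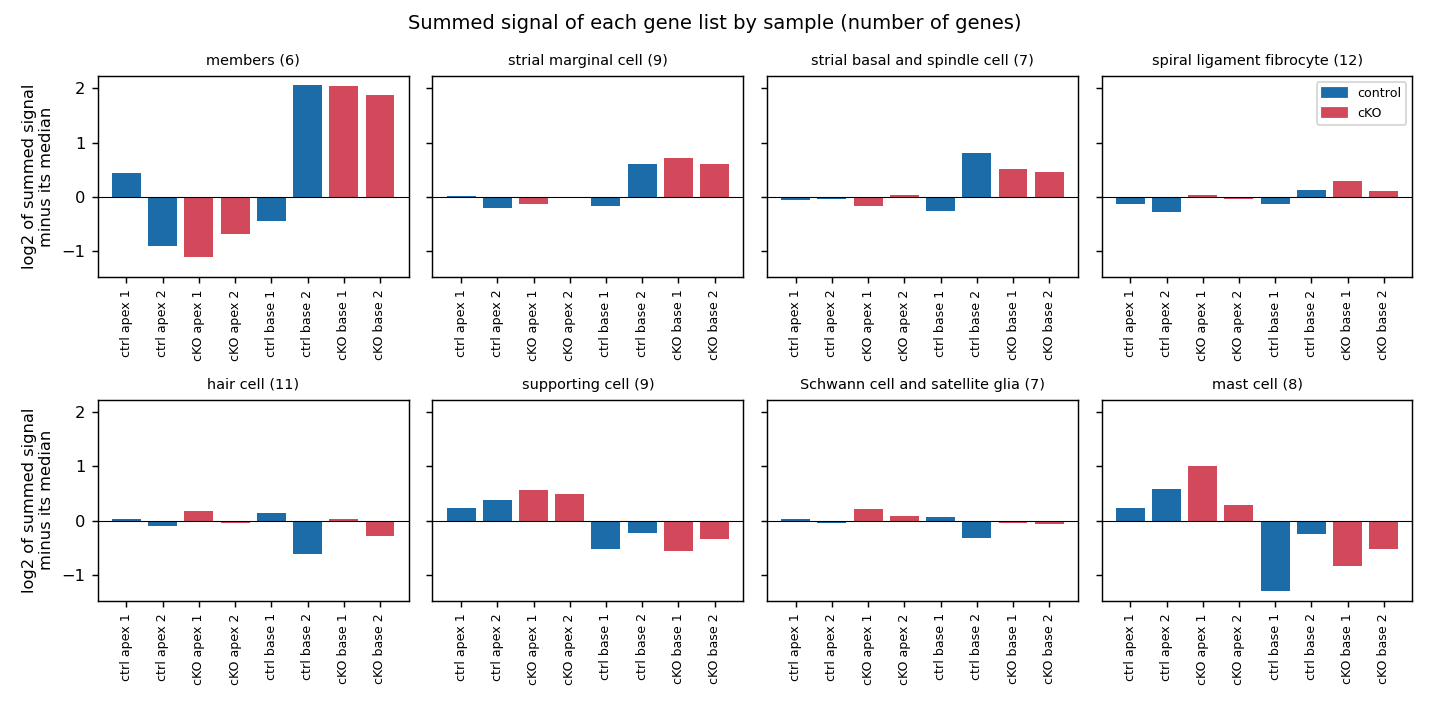
Log2 of the summed linear signal of 8 gene lists in each sample, minus the median of the list over the 8 samples; the number of genes summed is in each title, and bars start at 0. The melanocyte sum spans about 3 units, and the fibrocyte and glial sums stay near 0. The marginal sum and the basal and spindle cell sum are higher in the 3 basal samples with a high melanocyte sum. Bright genes weigh most in such sums, Slc12a2 in the marginal and Calb2 in the hair cell list. The melanocyte sum is mostly Dct in the 3 high basal samples and mostly Mitf and Kit in control base replicate 1.

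Hair cells and supporting cells make up the organ of Corti itself. Of 9 hair cell genes tested 2 were called lower in the base than in the apex over both genotypes, Strc and Gfi1. Of 9 supporting cell genes 4 were called lower in the base, none higher. Over all 13221 tested genes 157 (1.19%) were called in this comparison, 79 of them lower in the base. Sox2, a factor of supporting cells, was lower in the base by 1.37 ± 0.16 (log2 -1.37, adjusted p = 0.0197, limma). Myo7a, a hair cell myosin, was at 8.49 and 7.99 in the control base and 7.68 and 8.02 in the cKO base, against 8.42 to 9.17 in the apex. The hair cell sum was between 12016 and 20288 in the basal and between 17117 and 20887 in the apical samples. Calb2, a calcium-binding protein, made up 53.6% to 77.5% of that sum. Without Calb2 the sum was 4629 and 5569 in the control basal samples and 4231 and 4735 in the cKO basal samples. These basal sums were all below the apical ones, which lay between 6723 and 7933. No order against Dct within the control base can be read from the hair cell sum. The part of these levels in the results on Kit and Mitf was not tested. Of the hair cell genes listed, Slc26a5 and Atoh1 were under the filter. Among 6 tested genes of endothelium and pericytes 1 was called, Tek, an endothelial receptor, which was higher in the base by 0.72 ± 0.12 (adjusted p = 0.0496, limma), as Kit was.

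The likeness of other genes to the pigment genes was measured by Pearson's r with the pigment level, the mean of Dct, Tyr and Mlana in each sample after each was centred on its own mean. That level was 0.87 and -2.73 in control apex, -3.12 and -0.75 in cKO apex, -3.85 and 3.32 in control base, and 3.50 and 2.76 in cKO base. The 3 high basal samples lay within 0.74 of each other, and the highest apical sample was that of control mouse 1. Among the 1073 other tested genes with a range of at least 2, the 10 most like it were Kcnq1 (r = 0.990), Kcne1 (0.986), Enpep (0.984), Tmem45b (0.982), Tacr3 (0.981), Dnase1 (0.980), Gpnmb (0.978), Hpse (0.976), Slc45a2 (0.970) and Rgs4 (0.966). Of these, 2 are the channel subunits of marginal cells and 2 are melanosome genes. The 5 genes least like it were Crip3 (-0.855), Reep2 (-0.819), Nudt17 (-0.814), Cd164l2 (-0.809) and Sptssb (-0.798). All of these are over the same 8 samples from 4 presumed mice, of which 3 basal samples are high, and are given as a description.

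**Figure D4:**
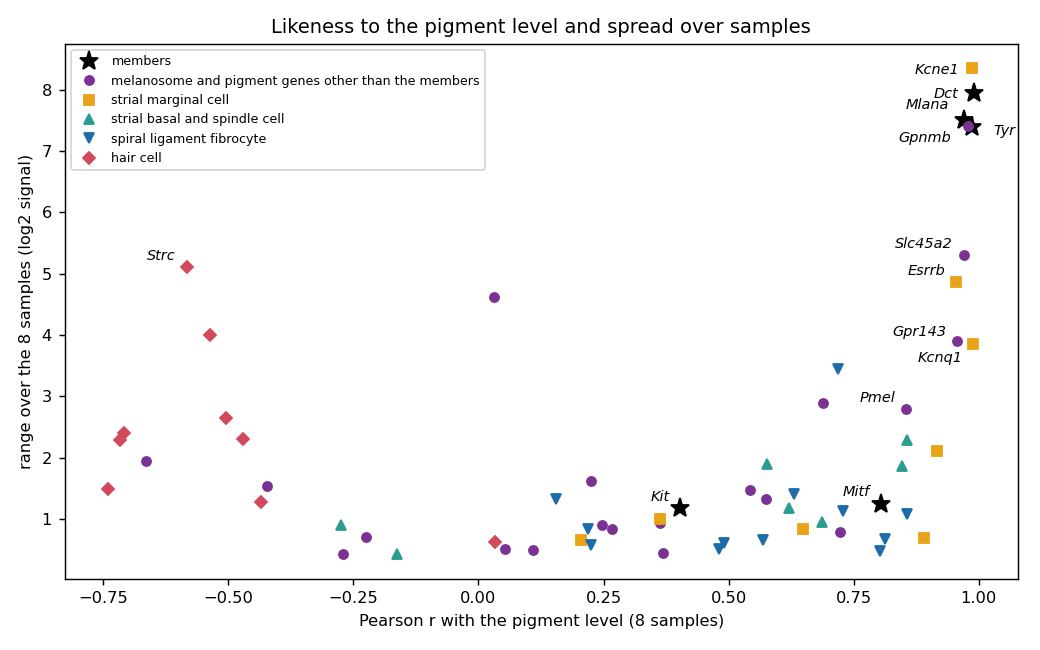
Pearson r with the pigment level over the 8 samples (horizontal) and range of log2 signal over the 8 samples (vertical) for the tested genes of 6 lists; each point is a gene, and the pigment level itself is made of Dct, Tyr and Mlana. Gpnmb, Slc45a2, Gpr143, Kcnq1, Kcne1 and Esrrb lie beside the 3 pigment genes at r above 0.95, and Kit and Mitf have ranges of 1.17 and 1.25.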

How the data were processed

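Total RNA of 8 samples was amplified, biotin-labelled and hybridised to 1 array each, per the labels' protocols. The authors deposited a linear MAS5 intensity for each probe set, scaled to a trimmed mean of 500. The submitters' processing notes name affy 1.26 and MAS5. From 45101 probe sets, 34945 had 1 gene in the supplied annotation, 932 several and 9160 none. Groups were read from sample titles. Each signal was taken as its log2, without pseudocount or rescaling, each gene was read from its probe set of highest mean, and genes under the 40th percentile were not tested. Group means were fitted by limma (version 3.58.1, R version 4.3.3) with an intensity trend (4 residual and 3.46 prior degrees of freedom), two-sided, with a threshold of 0.05 and 6 comparisons adjusted separately. The procedure was also run on simulated data with independent noise and the same spread in every group. That run cannot show how the fit behaves where the groups differ in spread, as for Dct, or where samples are paired. Exact permutation of 2 against 2 samples cannot go below p = 0.333 and was not used.

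The 6 genes and the lists were chosen with earlier results of these data known. The text names all members, up to 4 genes of highest mean signal per list and a few fixed markers. It also names the 10 most and 5 least like genes. Tectb, Gpr143, Trpm1, Oca2, Esrrb, Aqp1, Tbx18, Pou3f4, Nr2f2, Kcnj13, Strc, Gfi1, Slc26a5 and Atoh1 were named after their values were seen. Pairing of apex and base comes from the replicate number and the study design, in which a replicate is 1 mouse; deviations of same-numbered samples correlated at r = 0.339 in controls and 0.0683 in cKO over 13221 genes. Replicates are mice, 2 per group, and this number limits the precision of every value. Alternatives are in the closing section. Sequences come from RefSeq, GRCm38.p6.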

Additional observations from a re-analysis of the deposited data

How the results depend on the processing

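Directions of Dct, Tyr, Mlana and Mitf in the base minus apex comparisons over both genotypes were unchanged under every setting tried, and Kit likewise, while calls were not. The count of genes called in that comparison (157) became 98 with probe sets averaged, 70 without the intensity trend, 527 and 255 with the presumed mouse as random or fixed replicate block, 1049 without both samples of control mouse 1, and 0 to 1518 with 1 sample left out; the members called (1) became 0, 0 and 5 with averaged probe sets, no trend and no control mouse 1, and 0 to 5 with 1 sample left out. In the cKO alone 11 genes became 0 without a filter, with quantile normalization, with 75th percentile centring, without the trend and with the fixed block, 6 with averaged probe sets, 81 with the random block, 449 without control mouse 1 (4 members) and 0 to 316 with 1 sample left out (0 to 2 members). In controls 0 became 157 without control mouse 1 (2 members) and 0 to 551 with 1 sample left out. For cKO minus control, 0 became 1 in each region without the trend and 0 to 37 in the base with 1 sample left out. The causes were not tested.

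Signs that turned without control mouse 1 were cKO minus control in the apex for Dct (1.94) and Tyr (1.02), in the base for Dct (-0.10), Tyr (-0.31), Mlana (-0.18) and Mitf (-0.20), and the difference between regions for Dct (-2.05), Tyr (-1.32) and Mitf (-0.11). Kit in the base became -0.26 with probe sets averaged. None of these values was called in either setting. Leaving out 1 sample turned others: base minus apex in controls ran from -3.07 to 4.85 for Dct, -3.02 to 4.26 for Tyr and -2.67 to 3.65 for Mlana; cKO minus control ran in the apex from -3.74 to 1.94 for Dct, -2.35 to 1.02 for Tyr and -3.46 to 0.56 for Mlana, and in the base from -0.10 to 7.82 for Dct, -0.31 to 6.97 for Tyr, -0.18 to 6.14 for Mlana, -0.20 to 0.56 for Mitf and -0.11 to 0.14 for Kit. Tyr and Mlana left the test at the 60th percentile filter. With values under the filter raised to it, the range of Mlana was 3.58 in place of 7.50. The mouse as a block changed no member's call.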

Other observations

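Other tissue that a dissection could hold was read from further gene lists. The summed signal of 8 osteoclast genes varied 4.68-fold over the 8 samples (mostly Ctsk, 72.2% to 93.2% of it). Without Ctsk the sum of the other 7 varied 12.2-fold, from 260 in control base replicate 1 to 3166 in cKO base replicate 1. The sum of 10 genes of red and white blood cell precursors varied 3.25-fold, and that of 7 macrophage genes 1.71-fold. In that order, the median r with the pigment level was 0.426, 0.527 and 0.347 over the tested genes of each list. Acp5, an osteoclast phosphatase, was highest in cKO base replicate 1 at 10.69 and was at 7.59 in control base replicate 2. No gene of these lists was called in any comparison. Slc26a7, an anion transporter of Reissner's membrane, was at 9.92 in control base replicate 2 and between 11.81 and 12.78 in the other 7 samples, so that the control basal sample with high Dct had the least of it.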
